A study of Mus musculus with 12 samples.

Results

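The change that remained in mouse muscle stem cells 21 days after muscle injury was measured by comparing all 4 libraries of day 21 with all 4 libraries taken before injury, here called day 0, which is 8 of the 12 libraries of the series. The libraries were taken by day alone and the genotypes were pooled, because the targeted gene Sesn2 goes against the genotype labels of a pair of day 21 libraries. By label, each day had 2 wild-type libraries and 2 from Sestrin1,2 knockout mice. All mice were of the C57BL/6J strain and 2 to 3 months old. The cells were sorted by flow cytometry from 3 hindlimb muscles (quadriceps, gastrocnemius, tibialis anterior) and sequenced in bulk with single-end reads of 76 bases. The labels give no kind of injury, sex, batch or allele of the knockout. They do not say whether replicates are separate mice, so each p-value measures the spread between these libraries, which may be technical. The 4 day 7 libraries are given beside the main comparison as levels only. They are set against the same day 0 libraries, so the changes of days 7 and 21 are not independent.

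Muscle stem cells, also called satellite cells, lie beneath the sheath of a muscle fibre and are quiescent in resting muscle. After injury they leave quiescence, divide, and either commit to fusion into fibres or return to quiescence beneath the new fibres. Quiescent cells are known for the transcription factor Pax7 and for Notch and calcitonin receptor signalling, and the proteins around them, collagens and laminins among them, form their niche. Sestrins are proteins induced by stress that restrain the growth kinase complex mTORC1.

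Sesn2 was read first, since it checks the labels. Values of 4 libraries are given throughout in the order replicates 1 and 2 labelled knockout, then replicates 1 and 2 labelled wild type, in CPM, counts relative to library size, scaled by the trimmed mean of M-values. Sesn2 (ENSMUSG00000028893, GRCm38 chromosome 4, 132492032 to 132510501, minus strand) was at 5.44, 6.99, 75.1 and 84.3 CPM at day 0. The day 21 libraries stood at 9.81, 108, 8.88 and 81.8 CPM. Replicate 2 labelled knockout was thus above both wild-type libraries of day 0 and replicate 1 labelled wild type near the knockout range, and these libraries are called the doubted pair. Sesn1 was at 45.7, 45.5, 70.4 and 68.6 CPM at day 0, and then at 41.5, 66.9, 43.6 and 78.1 CPM at day 21, low in the same libraries as Sesn2. Sesn3, which was not targeted, was at 2.03 ± 0.356 CPM (SD, n = 4) at day 0 and 1.71 ± 0.434 CPM at day 21. It did not pass the test between the days (edgeR adjusted p 0.531). No test between the days is given for Sesn2 and Sesn1, since the level of Sesn2 decided that the genotypes were pooled.

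The 8 libraries held between 28396780 and 37404932 estimated counts. In a principal component analysis of the 500 most variable genes, the first component held 36.6% of the variance and set the day 0 knockout libraries, at -33 and -36.9, apart from the day 0 wild-type libraries, at 39 and 37.2. The day 21 libraries lay between them, from -6.56 to 6.73. The second component, with 28.2%, separated the days, with day 0 between 18.9 and 25.8 and day 21 between -26.7 and -18.6. The third, with 8.89%, set replicate 1 labelled wild type of day 21, at 31.2, apart from the other 7. Day 0 thus held a difference between the genotype labels of the same order as that between the days, and it enters the error of every test below. The part of genotype or of a batch in it was not tested, and the labels name no batch.

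**Figure D1:**
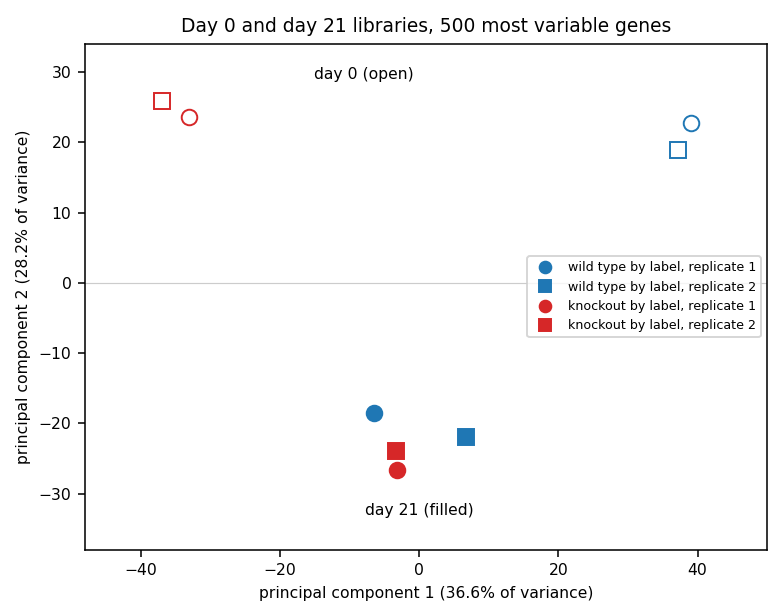
Principal components 1 and 2 of the 8 libraries compared, from log2 CPM of the 500 most variable genes. Each point is a library, open at day 0 and filled at day 21, with color for the labelled genotype and shape for the replicate. The day 0 libraries form a knockout and a wild-type pair on component 1, and the 4 day 21 libraries lie between these pairs and below 0 on component 2.

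Of 14508 genes with enough counts, 4208 differed between day 21 and day 0 at an edgeR adjusted p under 0.05, here called, which is 29% of those tested. Higher at day 21 were 2237 genes (15.4% of those tested) and lower were 1971 genes (13.6%), so 53.2% of the calls were higher. These shares are the background against which the counts of each list stand. At least 2-fold higher were 741 of them and at least 2-fold lower 448. In 697 and 420 of these the 4 libraries of one day did not overlap those of the other. In TPM, which the authors scaled to transcript length and depth, limma called 2495 genes higher and 1212 lower, or 67.3% higher, and the median of all genes was shifted by 0.09 on the log2 scale. For 8267 genes (57% of those tested) the 95% interval of the change lay within 2-fold. Without the doubted pair, with 2 libraries left at day 21, 884 genes were called higher and 586 lower.

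Transcript length moved with the comparison. The tested genes were split into 5 equal groups by the length of the longest transcript. The median log2 change from day 0 to day 21 was -0.34 in the shortest group, then -0.17, 0.01 and 0.16, and 0.34 in the longest. All 4 day 21 libraries showed it, between -0.42 and -0.21 in the shortest group and between 0.32 and 0.47 in the longest, against the day 0 mean. Called higher genes had a median length of 4697 bases and called lower genes of 2286 bases. The fit was therefore repeated with an offset for GC content and for length, which called 1919 genes higher and 1655 lower. The offset was fitted to these same libraries, so its medians of -0.03 to 0.04 over the 5 groups follow from the fit. It also takes out any change that genes of like length or GC content share. Counts under this offset are given beside the pathway lists below, and the part of RNA quality or library preparation in the trend was not tested.

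**Figure D2:**
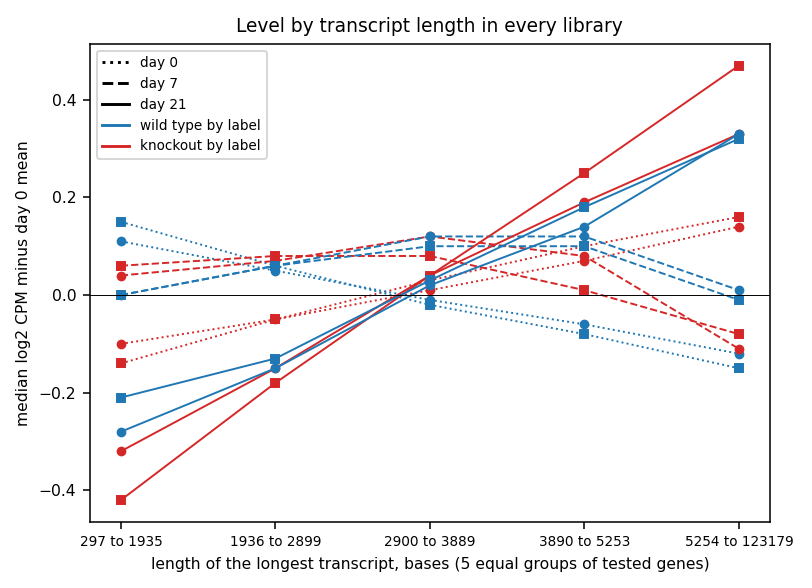
Median log2 CPM minus the day 0 mean (vertical axis) in 5 equal groups of tested genes by transcript length in bases (horizontal axis), 1 line per library. The 4 day 21 lines (solid) climb from between -0.42 and -0.21 to between 0.32 and 0.47, while the day 0 lines (dotted) of the genotypes slope in opposite directions and less steeply.

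Collagens and other matrix genes remained above their level before injury. Of 45 genes tested, 29 were called higher and 0 lower, beside 15.4% called higher over all genes, with a median log2 change of 1.13 beside -0.02 over all genes tested. With the GC and length offset 27 were called higher and 0 lower, with a median of 0.93, and without the doubted pair 17 and 0. In 26 of the 45 every day 21 library lay above every day 0 library, as in 16.5% of all genes tested.

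Col3a1, a chain of the fibrillar collagen III (ENSMUSG00000026043, GRCm38 chromosome 1, 45311538 to 45349706, plus strand), was at 675, 785, 1100 and 1130 CPM at day 0. The day 21 libraries stood at 5060, 5360, 3890 and 7330 CPM, 5.87-fold higher (log2 change 2.55, SE 0.241, edgeR adjusted p 0.000269). All day 21 libraries lay above all day 0 libraries and below those of day 7, which were at 16400 ± 1650 CPM. Fn1, fibronectin, was at 348, 345, 290 and 280 CPM at day 0, and then at 1270, 2220, 1140 and 1020 CPM at day 21, 4.48-fold higher (log2 change 2.16, SE 0.244, edgeR adjusted p 0.000546). Its day 7 level was 1260 ± 149 CPM, within the range of day 21. Fibronectin is known as a signal of the satellite cell niche in repair. Loxl2, which cross-links collagen, was at 32.7 ± 11.8 CPM at day 0, 48.7 ± 5.11 CPM at day 7 and 144 ± 14.1 CPM at day 21. For Loxl2 the late day was thus the highest of the series.

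Of the basement membrane genes in the list some were called and others not. Nid1, nidogen, rose from 203 ± 26.8 CPM to 609 ± 92 CPM, a log2 change of 1.59 (SE 0.141, edgeR adjusted p 0.000204). Lama2, the laminin chain lost in a congenital muscular dystrophy, rose from 88.6 ± 13.1 to 246 ± 31.5 CPM, a log2 change of 1.47 (SE 0.139, edgeR adjusted p 0.000258). Col4a2, a chain of the basement membrane collagen IV, did not pass (log2 change 0.50, edgeR adjusted p 0.167) and its libraries overlapped. Of the other matrix genes, Cthrc1, a secreted protein of injured tissue, was at 2.69 ± 2.07 CPM at day 0 and 19.6 ± 1.74 CPM at day 21, after 152 ± 18.2 CPM at day 7. Postn, periostin, was at 1020 ± 71.9, 7760 ± 1040 and 1690 ± 275 CPM on days 0, 7 and 21. Cthrc1 and Postn were above day 0 in every day 21 library. Fmod and Thbs4, a proteoglycan and a matrix protein of tendon, were called higher at 1.00 and 0.89 on the log2 scale but were not high in all libraries. Fmod was at 17100, 14400, 17200 and 5430 CPM at day 21 against 6760 ± 53.1 CPM at day 0, and Thbs4 was at 8180, 7410, 7470 and 2830 CPM against 3500 ± 127 CPM. In both, replicate 2 labelled wild type lay below all day 0 libraries.

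Markers of fibro-adipogenic cells, the connective tissue progenitors of muscle, include collagens of the matrix list. Their summed level was 17500 to 24200 CPM over the day 0 libraries and 28400 to 38600 CPM over those of day 21, a ratio of 1.63 (exact permutation test, two-sided, p = 0.0286, the smallest that 4 against 4 libraries allow, and 0.0429 adjusted over 9 marker lists). Of the 16 markers 8 were called higher and 1 lower, beside 29% called over all genes, and 7 and 0 with the offset. Of the 16, 4 are also in the matrix list. Col1a1 and Col3a1, both of the matrix list, went from 4760 to 11400 CPM and from 922 to 5410 CPM in the mean and carried most of the rise of the sum. Smoc2 and Lum, a secreted matrix protein and a proteoglycan, were also called higher without overlap, from 303 to 338 CPM at day 0 to 559 to 775 CPM at day 21 and from 96.3 to 140 CPM to 343 to 534 CPM. Dcn and Gsn, a proteoglycan and an actin-severing protein, were not called and overlapped, with Dcn at 5630 to 7460 CPM at day 0 against 4680 to 9790 CPM at day 21. Pdgfra, the receptor that defines these cells, was at 28.4, 32.6, 20.8 and 18.6 CPM at day 0, and then at 58.4, 90.7, 40.3 and 101 CPM at day 21. Pi16, a fibroblast marker, rose from 3.48 ± 2.41 to 28.4 ± 8.19 CPM (log2 change 3.01, SE 0.51, edgeR adjusted p 0.00326). Others went against this, with Clec3b at 12 to 15.6 CPM at day 0 against 9.91 to 15.2 CPM at day 21, and Ly6a falling by 0.82 on the log2 scale. The part of these cells in the matrix result was not tested. In bulk libraries more cells of a type and more RNA per cell cannot be told apart, here and for every group below.

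Receptors and repressors of TGF-beta signalling, which drives matrix genes, changed in both directions. Of 39 genes of TGF-beta and BMP signalling tested, 13 were called higher and 5 lower, beside 15.4% higher and 13.6% lower over all genes, with a median of 0.28, and 9 and 3 with the offset. Ski, a repressor of the pathway's SMAD factors (ENSMUSG00000029050, GRCm38 chromosome 4, 155154075 to 155222592, minus strand), was at 281, 317, 247 and 257 CPM at day 0. The day 21 libraries stood at 55.1, 37.2, 51.9 and 67.3 CPM, 5.2-fold lower (log2 change -2.38, SE 0.181, edgeR adjusted p 0.00015), and it was at 124 ± 50.2 CPM at day 7. All 4 day 21 libraries were below every other library of the series. Its relative Skil went the other way, from 141, 139, 177 and 158 CPM to 390, 390, 384 and 350 CPM (log2 change 1.30, SE 0.105, edgeR adjusted p 0.000173). The receptors Tgfbr1 and Tgfbr3 rose by 1.44 and 1.60 on the log2 scale (edgeR adjusted p 0.000201 and 0.000595). At day 7 Tgfbr1 was at 60.2 ± 10.9 CPM, near its 60.7 ± 2.9 CPM of day 0, and it was at 165 ± 24.8 CPM at day 21. Id1 and Id4, targets of BMP signalling, fell by 0.49 and 0.87. Without the doubted pair 9 genes of the list were called higher and 1 lower, which was Ski (edgeR adjusted p 0.00453).

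The following genes are among those chosen for the smallest adjusted p. Egfr, the epidermal growth factor receptor (ENSMUSG00000020122, GRCm38 chromosome 11, 16752203 to 16918158, plus strand), was at 70.9, 72.4, 78.8 and 81.3 CPM at day 0, and then at 272, 276, 278 and 215 CPM at day 21. The log2 change was 1.78 (SE 0.113, edgeR adjusted p 0.000132), and day 7, at 148 ± 8.34 CPM, was between the others. Peg3, an imprinted zinc finger gene of muscle stem cells (ENSMUSG00000002265, GRCm38 chromosome 7, 6703892 to 6730431, minus strand), was at 105, 107, 104 and 101 CPM at day 0, and then at 313, 299, 364 and 408 CPM at day 21. It was 3.32-fold higher (log2 change 1.73, SE 0.116, edgeR adjusted p 0.000132) and was already at 305 ± 33.4 CPM at day 7. Tac1, which encodes the neuropeptide substance P, rose from 3.15 ± 0.312 to 24.2 ± 4.54 CPM (log2 change 2.94, SE 0.175, edgeR adjusted p 0.000132). Prox1, a transcription factor of lymphatic vessels that is also used in satellite cells, was at 41 ± 5.57, 58 ± 14 and 150 ± 9.13 CPM on days 0, 7 and 21. These genes were chosen by a rule that required no overlap between the days. Ltbp2, which encodes a protein of elastic fibres, was among the largest increases, from 7.83, 7.51, 2.28 and 3.27 CPM to 46.4, 56.8, 30.6 and 85 CPM (log2 change 3.39, SE 0.464, edgeR adjusted p 0.00123).

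Of 21 imprinted growth genes tested, Peg3 among them, 6 were called higher and 3 lower, beside 29% called over all genes. The median was 0.09, or -0.01 to 0.28 with 1 library left out, and 5 and 3 were called with the offset. Grb10, an inhibitor of insulin receptor signalling, rose from 122 ± 9.39 to 310 ± 58.2 CPM, and Plagl1, a zinc finger factor, from 44.5 ± 5.08 to 105 ± 18.8 CPM. Both stood higher still at day 7, at 626 ± 102 and 137 ± 11.7 CPM. Phlda2, a growth-restraining gene of the placenta, fell from 1.24 ± 0.38 to 0.282 ± 0.0651 CPM.

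Genes of quiescence and satellite cell identity were called higher more often than lower. The 17 genes of the list that were not called are not thereby shown to be at their level before injury. Of 34 tested, 15 were called higher and 2 lower, beside 15.4% higher and 13.6% lower over all genes, with a median of 0.47, against 13 and 1 with the offset and 8 and 2 without the doubted pair. Vcam1, an adhesion molecule used to sort satellite cells (ENSMUSG00000027962, GRCm38 chromosome 3, 116109949 to 116129688, minus strand), was at 141, 133, 311 and 307 CPM at day 0, and then at 576, 338, 723 and 612 CPM at day 21. It was 2.52-fold higher (log2 change 1.33, SE 0.341, edgeR adjusted p 0.0187). Calcr, the calcitonin receptor that holds satellite cells in quiescence, was at 22, 22.8, 43.2 and 40 CPM at day 0, and then at 65.5, 44.5, 85.3 and 101 CPM at day 21 (log2 change 1.21, SE 0.305, edgeR adjusted p 0.0177). Its day 7 level, 25.8 ± 8.18 CPM, was within the day 0 range or below it. In both genes the groups did not overlap, though the highest day 0 and lowest day 21 libraries were close, and without the doubted pair both missed the threshold (edgeR adjusted p 0.069 for Vcam1 and 0.0515 for Calcr) at log2 changes of 1.40 and 1.37. Megf10, a receptor of satellite cell renewal, rose from 71.1 ± 3.33 to 167 ± 16.2 CPM, and Met, the receptor for hepatocyte growth factor, from 31.2 ± 2.04 to 81.2 ± 17.8 CPM.

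Pax7 itself was at 10.1, 13.8, 24.5 and 27.2 CPM at day 0, and then at 26.1, 16.9, 35.5 and 60 CPM at day 21. Its libraries overlapped and it did not pass the test (log2 change 0.87, 95% interval -0.08 to 1.82, edgeR adjusted p 0.15). Cd34 and Spry1, a surface glycoprotein and an inhibitor of growth factor signalling in quiescent cells, gave log2 changes of 0.24 (95% interval -0.29 to 0.77) and -0.07 (-1.05 to 0.91). Spry1 was at 202, 72.6, 88.5 and 344 CPM at day 21, low in the doubted pair, against 161, 176, 203 and 204 CPM at day 0. Lower at day 21 were Meox2 and Ndrg2, by 0.59 and 0.74 on the log2 scale. With the offset Meox2 was not called (log2 change -0.42, edgeR adjusted p 0.0614).

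Of the myogenic factors, some passed the test and some did not, and differences between them were not tested. Myod1, which drives commitment to muscle, was at 155, 172, 107 and 125 CPM at day 0, and then at 308, 274, 355 and 182 CPM at day 21 (log2 change 1.00, SE 0.22, edgeR adjusted p 0.01). Its day 7 level was 138 ± 10.9 CPM. Myf5, its relative in early activation, rose from 27.1 ± 9.92 to 55.6 ± 10.2 CPM (log2 change 1.03, SE 0.261, edgeR adjusted p 0.0179). Without the doubted pair both missed the threshold (edgeR adjusted p 0.102 for Myod1 and 0.0807 for Myf5) at log2 changes of 0.81 and 1.09. Myog, which marks cells entering differentiation, was at 60.7 ± 32.1 CPM at day 0, 882 ± 101 CPM at day 7 and 69.3 ± 38.4 CPM at day 21, and it did not pass the test (log2 change 0.19, 95% interval -0.89 to 1.27). Beside 29% called over all genes, 9 of 24 tested activation and commitment genes were called higher and 1 lower, and 11 and 0 with the offset. The lower one was Cdkn1a, an inhibitor of the cell cycle, from 1190 to 814 CPM in the mean, which was not called with the offset or without the doubted pair.

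The Notch pathway gave 5 genes higher and 2 lower of 20 tested, beside 29% called over all genes, with a median of 0.09, and 3 each way with the offset. Hes1, a direct Notch target (ENSMUSG00000022528, GRCm38 chromosome 16, 30064384 to 30067796, plus strand), was at 192, 199, 214 and 205 CPM at day 0, and then at 92.3, 70.8, 68.1 and 101 CPM at day 21. It was 2.44-fold lower (log2 change -1.28, SE 0.141, edgeR adjusted p 0.000501), with no overlap, and stood above the 47.9 ± 6.95 CPM of day 7. Hey2, another target, fell by 1.24. The targets that mark quiescent satellite cells most closely, Hey1 and Heyl, gave log2 changes of -0.13 (95% interval -0.66 to 0.41) and 0.08 (-0.24 to 0.41). Rbpj, the DNA-binding partner of Notch, was higher at 75.7 ± 16 against 29.1 ± 13.2 CPM (log2 change 1.38, SE 0.304, edgeR adjusted p 0.0102). The receptor Notch3 was at 247, 623, 447 and 716 CPM at day 21, within or near its day 0 range of 308 to 669 CPM.

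Genes of dividing cells had largely left their day 7 level. Of 34 cell cycle genes tested 3 were called higher and 0 lower, beside 29% called over all genes, and 31 were not called. The 3 called, a smaller share than over all genes, were the DNA replication licensing genes Mcm3, Mcm7 and Mcm4. With the offset 3 were called higher and 0 lower, and without the doubted pair 1 and 0, with Mcm7 and Mcm4 not called (edgeR adjusted p 0.0957 and 0.142) at log2 changes of 0.42 and 0.31. Mcm4 was called in 3 of the 8 fits that left out 1 library. Mcm3 was at 13.7 ± 0.485, 99.6 ± 6.29 and 23.5 ± 3.37 CPM on days 0, 7 and 21 (log2 change 0.78, SE 0.128, edgeR adjusted p 0.00292). Mki67, the proliferation marker, was at 6.62, 6.08, 7.36 and 20.8 CPM at day 21 against 4.77, 6.19, 5.31 and 6.54 CPM at day 0, so that replicate 2 labelled wild type stood alone. Top2a, of chromosome separation, was at 7.98, 5.96, 7.06 and 23.4 CPM, again high in that library. Without that library the median of the cell cycle list was -0.19 in place of 0.22. Cdkn1c, which is high in cells that stop dividing, was at 210 ± 68.2, 1190 ± 222 and 177 ± 51.4 CPM on the 3 days.

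**Figure D3:**
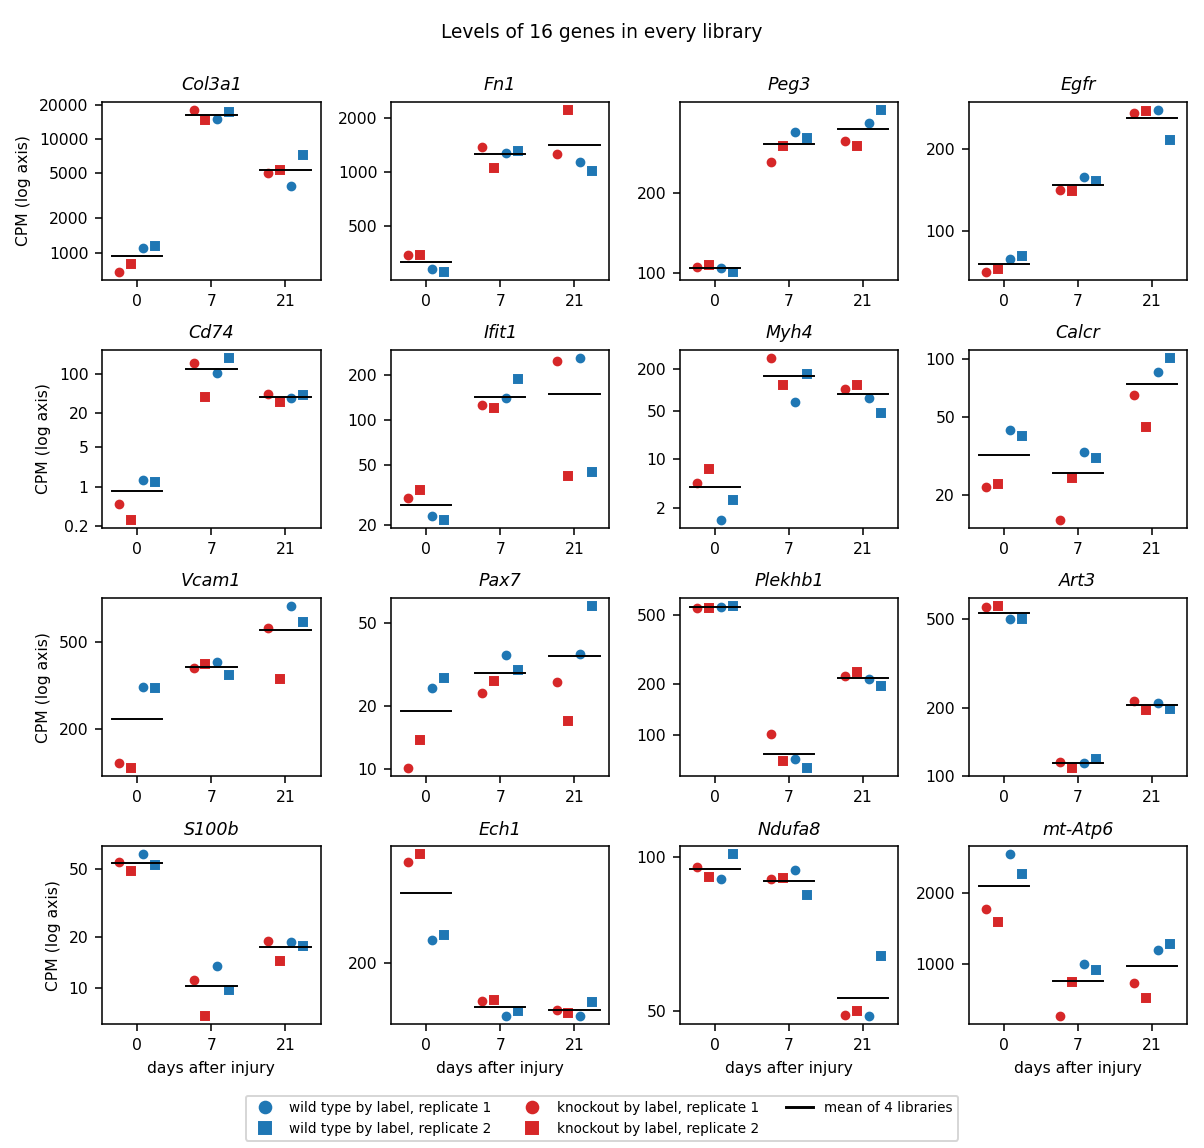
CPM on a log axis of 16 genes against days after injury in all 12 libraries, with color for the labelled genotype, shape for the replicate and a bar for the mean of 4 libraries. Col3a1, Peg3, Egfr and Cd74 stand above day 0 in every day 21 library and Plekhb1, Art3, S100b, Ech1, Ndufa8 and mt-Atp6 below it, while Pax7 overlaps and Ifit1, at 251 and 261 CPM, is highest in the replicate 1 libraries of day 21.

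Interferon-stimulated genes, which are switched on by virus or by interferons of neighbouring cells, were above day 0 in part. Of 38 tested, 11 were called higher and 0 lower, with a median of 0.73, beside 15.4% called higher and 29% called in either direction over all genes, and the same numbers, 11 and 0, with the offset. Without the doubted pair 6 were called higher. Ifit1, which binds foreign RNA, was at 30, 34.3, 22.9 and 21.5 CPM at day 0, and then at 251, 42.6, 261 and 44.9 CPM at day 21 (log2 change 2.47, SE 0.617, edgeR adjusted p 0.0171). Iigp1, a GTPase against parasites, was at 23.9, 23.4, 62.2 and 44.7 CPM at day 0, and then at 323, 74.9, 336 and 85.2 CPM at day 21 (log2 change 2.41, SE 0.574, edgeR adjusted p 0.014). In both genes the replicate 1 libraries of day 21, which are also the libraries low in Sesn2, were about as high as each other and far above the replicate 2 libraries, and even the latter lay above all of day 0. At day 7 these genes were at 144 ± 30.3 and 231 ± 11.6 CPM. Rsad2, an antiviral enzyme, was at 54.5, 13.4, 42.4 and 8.13 CPM at day 21 and overlapped day 0, which reached 8.97 CPM. Ddx58, the RNA sensor RIG-I, was more even, at 20.7, 26.9, 20.1 and 19 CPM at day 0 and 47.3, 28.7, 38.2 and 36.9 CPM at day 21 (log2 change 0.80, SE 0.174, edgeR adjusted p 0.00954).

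The promoters of these genes were read because the element bound by interferon-activated factors lies close to the start site. The motif searched was TTTC, any 2 bases, TTTC, on both strands, in the window from 250 bases before to 50 after the start in RefSeq (GRCm38.p6). It was found in 16 of 27 list genes that matched the promoter table (59.3%) and in 1074 of 26994 genes in all (3.98%). Among the matched genes, 6 of 10 called genes and 10 of 17 not called held it. Part of the window of 4 called genes that held it is shown on the strand of the gene, with the match on either strand in capitals.
Ifit1, chr19:34640755-34640843, plus strand: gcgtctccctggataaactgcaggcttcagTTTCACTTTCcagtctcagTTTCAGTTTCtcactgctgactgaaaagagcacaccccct
Rsad2, chr12:26456533-26456602, minus strand: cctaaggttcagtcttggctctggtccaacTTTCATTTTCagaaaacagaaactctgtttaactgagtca
Oas1a, chr5:120907500-120907575, minus strand: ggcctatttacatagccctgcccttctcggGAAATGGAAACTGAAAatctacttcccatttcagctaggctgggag
Ddx58, chr4:40239784-40239853, minus strand: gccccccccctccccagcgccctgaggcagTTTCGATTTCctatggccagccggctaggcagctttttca
Ifit1 holds 2 separate matches, and in Oas1a 2 matches overlap. A match is a description of the letters, not a measured site, and the share was much the same in called and not called genes. For the circadian clock list the E-box CACGTG was found in 5 of 19 matched genes against 8.09% of all, in 0 of 3 called and 5 of 16 not called, and for the cell cycle list CCAAT in 22 of 28 against 41%.

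Antigen presentation genes of class I gave 5 genes higher and 0 lower of 19, beside 29% called over all genes, 3 and 0 with the offset, and 0 each way without the doubted pair. H2-Q6 was at 5.26, 5.6, 13 and 12.4 CPM at day 0, and then at 114, 13.5, 128 and 15.1 CPM at day 21, the same split between the replicates as in Ifit1. It has near copies among its neighbours, with which it can share reads, so its level is uncertain. It was not called without the doubted pair (log2 change 2.82, edgeR adjusted p 0.0611). Ifi205, of another family of near copies and uncertain for the same reason, rose from 2.3 ± 1.86 to 28.6 ± 6.35 CPM with no overlap. Chemokines and cytokines gave 7 higher and 2 lower of 26, beside 29% called over all genes, and 12 and 1 with the offset. Tnfaip3 and Nfkb2, both induced by NF-kappaB, rose by 1.02 and 1.29 on the log2 scale (edgeR adjusted p 0.000555 and 0.00328). Tnfaip3 was at 44.6 ± 8.79 CPM at day 7, below the 93.4 ± 8.51 CPM of day 0, and at 189 ± 22.7 CPM at day 21.

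The gene with the largest named increase was Cd74, the invariant chain of class II antigen presentation (ENSMUSG00000024610). It was at 0.483, 0.256, 1.34 and 1.21 CPM at day 0, and then at 43.6, 32, 37 and 41.9 CPM at day 21, 45.8-fold higher (log2 change 5.52, SE 0.422, edgeR adjusted p 0.00015). H2-Aa, a class II chain, was at 0.121, 0.0732, 0.469 and 0.29 CPM and then at 8.56, 6.27, 9.68 and 7.93 CPM (log2 change 5.05, SE 0.471, edgeR adjusted p 0.000257). All day 21 libraries were far above all day 0 libraries, and at day 7 the genes were at 124 ± 67.6 and 26.8 ± 14.2 CPM. These genes are in the list of immune cell markers, of which 11 of 22 were tested. Of these 5 were called higher and 1 lower, beside 29% called over all genes, with a median of 2.64. Members low at day 0 passed the filter on low counts through the later day alone, and with at least 10 counts required in every library the median was 0.48. The defining markers Ptprc and Cd3e were at or near 0 on both days, with Ptprc at 1.56 CPM in the highest day 21 library. Csf1r and Laptm5, of macrophages and blood cells, rose from 0.851 ± 0.379 to 4.52 ± 2.07 CPM and from 0.223 ± 0.123 to 1.81 ± 0.592 CPM. The summed level of the list went the other way, from 2350 to 750 CPM in the mean (exact permutation p = 0.0286, adjusted 0.0429), because Lyz2 alone made up 2340 and 669 CPM of it. The part of immune cells in these results was not tested.

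Genes of mature muscle fibres stood above day 0 in most cases. Of 26 tested, 17 were called higher and 2 lower, beside 15.4% higher and 13.6% lower over all genes. The median was 1.94, and 18 and 2 were called with the offset. Myh4, the fast myosin IIB (ENSMUSG00000057003, GRCm38 chromosome 11, 67238029 to 67260446, plus strand), was at 4.59, 7.4, 1.34 and 2.58 CPM at day 0, and then at 104, 120, 77.3 and 46.2 CPM at day 21. It was 22-fold higher (log2 change 4.46, SE 0.527, edgeR adjusted p 0.000654), and was at 162 ± 95.2 CPM at day 7. Pvalb, a calcium buffer of fast fibres, rose from 1.42 ± 0.265 to 16.5 ± 6.24 CPM, and Ckm, muscle creatine kinase, from 5.51 ± 0.931 to 45.7 ± 25.9 CPM. Myh8, the perinatal myosin of new fibres, was at 0.261 ± 0.103, 162 ± 49.7 and 7.2 ± 3.98 CPM on days 0, 7 and 21. The summed level of the list fell, from 3620 to 2300 CPM in the mean (exact permutation p = 0.0286, adjusted 0.0429), while the median of its log2 changes was above 0, since Tpm2 held 3270 and 1320 CPM of it. Tpm2, a tropomyosin also found in smooth muscle, fell by 1.31 on the log2 scale. Whether fibre RNA reached the sorted cells was not tested.

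Genes that myelinating glia are known for were the list with the lowest median change. Of 10 Schwann cell and nerve markers tested 0 were called higher and 8 lower, beside 13.6% lower over all genes. The median was -1.35, the same direction as with the offset (0 and 9, median -1.36) and without the doubted pair (0 and 8). S100b (ENSMUSG00000033208, GRCm38 chromosome 10, 76253853 to 76261159, plus strand) was at 55.1, 48.7, 60.9 and 52.8 CPM at day 0, and then at 18.8, 14.4, 18.6 and 17.6 CPM at day 21 (log2 change -1.65, edgeR adjusted p 0.00015). Sox10, the transcription factor of these glia, fell from 111 ± 12.9 to 41.8 ± 4.81 CPM, and Mbp, myelin basic protein, from 1670 ± 72.3 to 624 ± 123 CPM. No day 21 library reached the day 0 range for any of these genes, and day 7 was lower again, with Mbp at 186 ± 33.3 CPM. The summed level of the markers was 4710 to 5370 CPM at day 0 against 1740 to 2430 CPM at day 21, a ratio of 0.442 (exact permutation p = 0.0286, adjusted 0.0429).

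Plekhb1 (ENSMUSG00000030701, GRCm38 chromosome 7, 100642892 to 100662414, minus strand), among the lower genes of smallest adjusted p, was at 546, 547, 559 and 562 CPM at day 0, and then at 222, 233, 212 and 194 CPM at day 21. It was 2.58-fold lower (log2 change -1.36, SE 0.0901, edgeR adjusted p 0.000132). Cntf, a neurotrophic factor made by Schwann cells, had the largest named decrease, from 27.1, 29.6, 28.1 and 30.9 CPM to 1.51, 4.61, 2 and 1.3 CPM, 12.3-fold (log2 change -3.62, SE 0.377, edgeR adjusted p 0.000399). Mal, a protein of myelin membranes, fell from 121 ± 8.52 to 35.3 ± 5.97 CPM, and Aspa, an enzyme of myelin lipid supply, from 103 ± 9.12 to 35.6 ± 2.63 CPM. Art3, a membrane protein of the ADP-ribosyltransferase family, was at 565, 571, 503 and 501 CPM at day 0, 114 ± 4.44 CPM at day 7 and 216, 196, 212 and 199 CPM at day 21. In all of these, day 21 was above day 7 and below day 0. The part of Schwann cells in these results was not tested. Khdrbs3, an RNA-binding protein, showed another course, at 69.9 ± 9.34, 37.4 ± 6.14 and 7.41 ± 7.05 CPM on days 0, 7 and 21.

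Pericyte and smooth muscle markers were also lower in sum, at 10900 to 16500 CPM at day 0 against 6330 to 8680 CPM at day 21 (exact permutation p = 0.0286, adjusted 0.0429). Of 11 tested 1 was called higher and 4 lower, beside 29% called over all genes. Acta2, smooth muscle actin, fell from 8550 ± 1770 to 4090 ± 519 CPM and Tagln, its binding partner, from 2130 ± 285 to 975 ± 124 CPM, while Abcc9, a channel subunit of pericytes, rose by 1.31 on the log2 scale. Adipocyte markers fell in sum from 156 to 92 CPM in the mean (exact permutation p = 0.0286, adjusted 0.0429). Of 5 tested 1 was called each way, beside 29% called over all genes. Fabp4, also in the endothelial list, made up 108 CPM of the first mean and 46 CPM of the second, and Car3, a carbonic anhydrase, rose from 2.5 to 13.7 CPM. The sums of endothelial, red blood cell and skin markers overlapped between the days, with exact permutation p of 0.286, 1 and 0.714. They gave 1 higher and 3 lower of 16, 0 and 1 of 6, and 2 and 1 of 16, beside 29% called over all genes. Day 0 red blood cell sums were 228, 212, 908 and 914 CPM, and skin sums 266, 275, 678 and 691 CPM. Day 0 was thus split by label in both, and their overlap with day 21 does not show an unchanged level. Pecam1, which defines endothelium, was at 55.6 to 73.7 CPM at day 0 against 47 to 77.4 CPM at day 21.

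**Figure D4:**
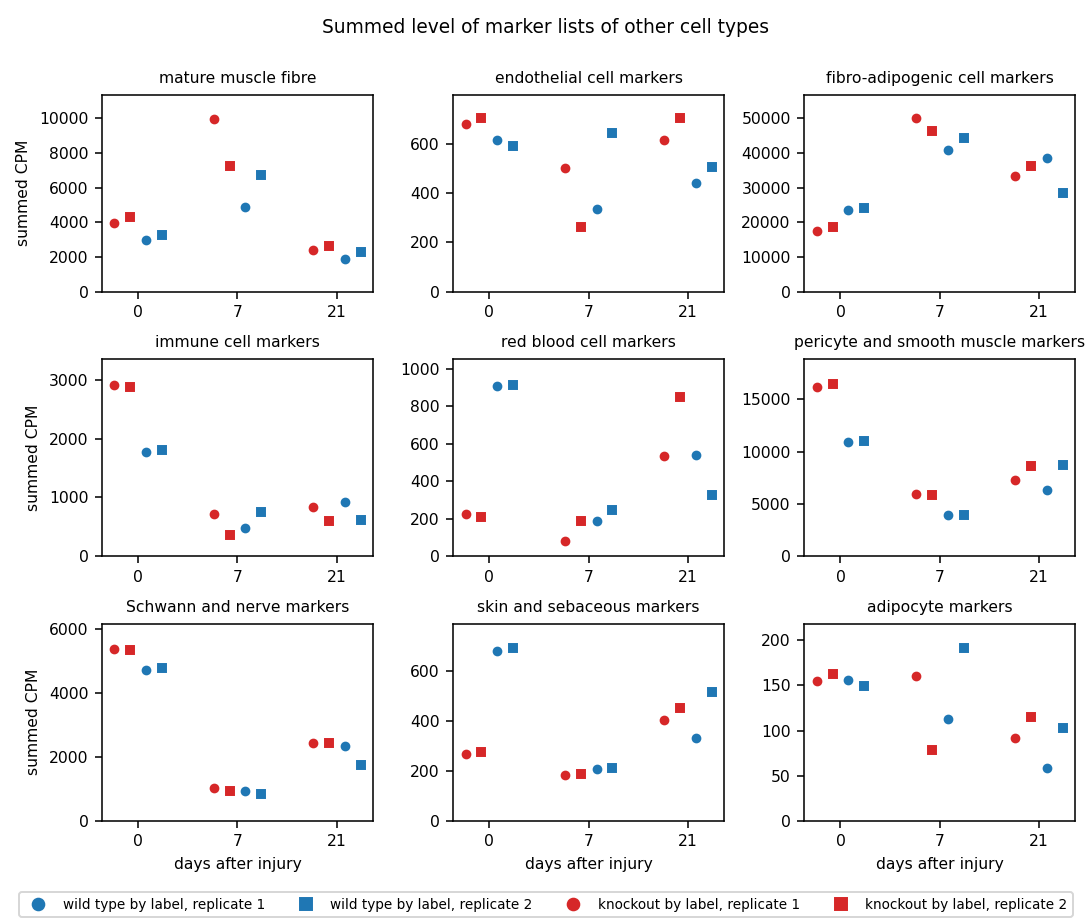
Summed CPM of 9 marker lists of other cell types against days after injury, 1 point per library, with color for the labelled genotype and shape for the replicate. Fibre, Schwann, pericyte, immune and adipocyte sums lie lower at day 21 than at day 0 without overlap and the fibro-adipogenic sum lies higher, while the endothelial, red blood cell and skin sums overlap.

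Respiratory chain genes were lower as a block in the counts. Of 56 nuclear genes tested, 0 were called higher and 48 lower, beside 15.4% higher and 13.6% lower over all genes. The median was -0.61, and all 56 fitted values were below 0. These transcripts are short, with a median length of 1297 bases, and with the GC and length offset 21 were called lower and 0 higher, with a median of -0.27. Without the doubted pair 3 were called lower, with a median of -0.51. Ndufa8, a subunit of complex I (ENSMUSG00000026895, GRCm38 chromosome 2, 36036326 to 36049406, minus strand), was at 95.6, 91.3, 90.3 and 101 CPM at day 0, and then at 49, 49.9, 48.8 and 64 CPM at day 21. Its log2 change was -0.84 (SE 0.114, edgeR adjusted p 0.00119), and -0.48 with the offset (edgeR adjusted p 0.0134). At day 7 it was at 89.8 ± 4.14 CPM. Of 12 genes of the mitochondrial genome 8 were called lower and 0 higher, beside 13.6% lower over all genes, with a median of -0.59. With the offset 3 were called lower, and without the doubted pair 0 each way, with a median of -0.61. mt-Atp6, of the ATP synthase, was at 1710, 1510, 2920 and 2420 CPM at day 0, and then at 826, 720, 1150 and 1220 CPM at day 21, after 843 ± 175 CPM at day 7, and it was not called without the doubted pair (log2 change -1.07, edgeR adjusted p 0.0866, against -1.13 with it). No day 21 library overlapped day 0 for either gene.

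Fatty acid oxidation genes were mostly lower or not called. Of 35 tested, 1 was called higher and 15 lower, beside 15.4% higher and 13.6% lower over all genes, with a median of -0.44. With the offset 1 and 12 were called, with a median of -0.37, and without the doubted pair 1 and 4. Ech1, of the mitochondrial oxidation of unsaturated fatty acids (ENSMUSG00000053898, GRCm38 chromosome 7, 28825217 to 28832247, plus strand), was at 409, 430, 235 and 244 CPM at day 0, and then at 144, 141, 138 and 153 CPM at day 21 (log2 change -1.19, SE 0.207, edgeR adjusted p 0.00363). Without the doubted pair Ech1 and Cpt1b were not called (edgeR adjusted p 0.059 and 0.198) at log2 changes of -1.16 and -2.07. The day 0 knockout libraries were the highest and the day 21 libraries nearly level. Cpt1b, the muscle form of the enzyme that admits fatty acids to mitochondria, was at 46.8, 50.7, 7.94 and 7.99 CPM at day 0, and then at 6.36, 4.67, 2.77 and 7.15 CPM at day 21, so that its decrease of 2.44 on the log2 scale came almost wholly from the day 0 knockout libraries. Acaa2 and Etfb, of the last step of the cycle and of electron transfer, fell by 0.97 and 0.96. The member called higher was Pdk4, which blocks the entry of pyruvate into mitochondria, from 85.8 ± 18.8 to 166 ± 27 CPM. Ppargc1a, the coactivator of mitochondrial genes, fell from 25.3 ± 5.3 to 13.5 ± 2.32 CPM.

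Glycolysis genes gave 3 higher and 7 lower of 20, beside 29% called over all genes, and 2 and 5 with the offset. Hk1 and Hk2, the hexokinases, rose by 0.74 and 1.73, while Ldhb, lactate dehydrogenase B, fell from 287 ± 16.7 to 126 ± 14.7 CPM (log2 change -1.19, SE 0.109, edgeR adjusted p 0.00023). Glutathione and NRF2 pathway genes gave 2 higher and 13 lower of 39, beside 29% called over all genes, but 5 and 6 with the offset. Without the doubted pair 0 were called higher and 5 lower. The median was -0.35, with -0.39 to -0.18 when 1 library was left out and -0.07 with the offset. Mgst3, a membrane glutathione transferase, was at 95.1, 84, 83.9 and 79.5 CPM at day 0, and then at 39.1, 43.1, 35.5 and 45.8 CPM at day 21, and was called with the offset too, at -0.73 in place of -1.07. Gstm genes have near copies and are uncertain, and Gstp1 and Gstp2, not called, each stand in the table as 2 gene records with the same counts. Sterol synthesis genes gave 7 higher and 1 lower of 26, beside 29% called over all genes, and 6 and 1 with the offset. Insig1, which holds the sterol sensor in place, was at 50.6 ± 6.85, 20.3 ± 2.44 and 107 ± 8.99 CPM on days 0, 7 and 21 (log2 change 1.08, SE 0.121, edgeR adjusted p 0.000538). For Insig1, day 21 was thus the highest of the 3 days and day 7 the lowest.

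The remaining lists moved little or depended on the offset. Chromatin modifiers, whose transcripts are long, gave 15 higher and 0 lower of 39, beside 29% called over all genes, with a median of 0.15. With the offset 7 were called higher and 3 lower, with a median of -0.10. Setd2, a histone methyltransferase, was at 31 ± 1.14 CPM at day 0 and 84.2 ± 10.7 CPM at day 21 and was called in both fits. Cytosolic ribosomal protein genes gave 0 calls of 78 in edgeR, beside 29% called over all genes, with 2 at an unadjusted p under 0.05. Their median was -0.14, or -0.32 to 0.02 with 1 library left out. DESeq2 called 0 higher and 1 lower, and with the offset 5 were called higher, with a median of 0.18. Many of them have near copies. The proteasome gave 1 higher and 5 lower of 33, beside 29% called over all genes, and 1 and 0 with the offset. Circadian clock genes gave 5 higher and 0 lower of 24, beside 15.4% higher over all genes, but 3 each way with the offset and 1 each way without the doubted pair. Csnk1d, a kinase of clock proteins, was at 322 ± 40.5 and then 557 ± 61.3 CPM and was called in all 3 of these fits. Clock, the activator that names the list, was at 16.6 ± 4.66 and then 37.5 ± 7.92 CPM and was called in both fits to all 8 libraries, though not without the doubted pair (log2 change 0.97, edgeR adjusted p 0.0552). The labels give no time of collection. Immediate early genes, which respond to tissue dissociation, gave 5 higher and 6 lower of 30, beside 29% called over all genes, 4 and 3 with the offset and 0 and 2 without the doubted pair, with Atf3 at 1800 ± 58 and then 1180 ± 26.3 CPM. Heat shock genes gave 1 higher and 2 lower of 18, beside 29% called over all genes, and 3 each way with the offset. Cryab and Hspb1, small chaperones, fell by 1.11 and 0.74. Of 36 mTORC1 and Sestrin pathway genes 2 were called higher and 5 lower, 2 and 4 with the offset, and 2 and 0 without the doubted pair, beside 29% called over all genes. Among these 36 genes Fnip1, a partner of the mTORC1 regulator folliculin, rose by 1.03 and Rheb, the GTPase that activates mTORC1, fell by 0.47, and Rheb was not called without the doubted pair (edgeR adjusted p 0.165) at the same log2 change. Of 25 p53 targets 2 were called higher and 3 lower, beside 29% called over all genes, and 2 each way with the offset, the largest change being that of Eda2r, a receptor of the tumour necrosis factor family, from 8.36 ± 1.63 to 34.4 ± 10.3 CPM.

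**Figure D5:**
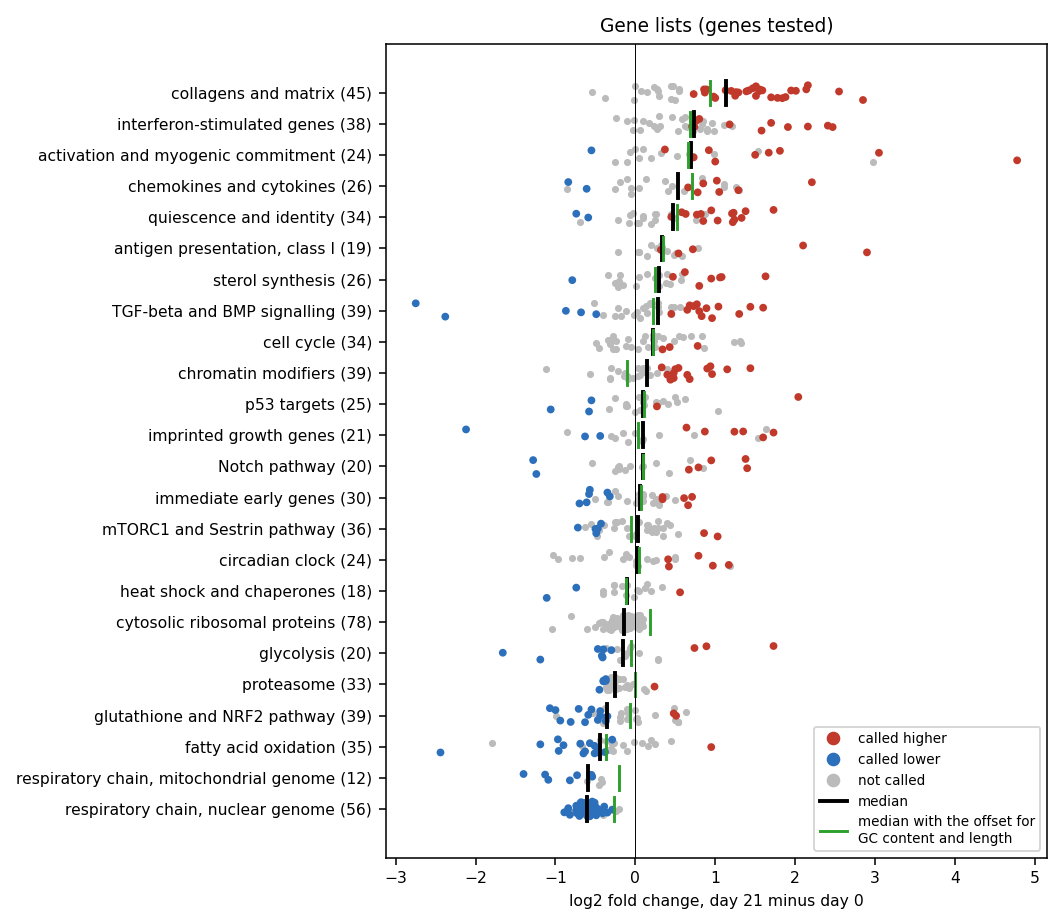
Log2 fold change of day 21 against day 0 (horizontal axis) for each tested gene of 24 lists, with the number tested in brackets, called genes in red or blue, the median as a black line and the median with the GC and length offset as a green line. By the black line matrix genes lie furthest right, with a median of 1.13, and nuclear respiratory genes furthest left, with a median of -0.61. With the offset that median moved to -0.27, and fatty acid oxidation genes, at -0.37, lie further left.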

How the data were processed

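Sorted muscle stem cells of mice were sequenced in 12 bulk libraries, 2 for each labelled genotype at days 0, 7 and 21. Per the labels' protocols, libraries were made with SMART-Seq v4 and Nextera XT. The submitters' processing notes name kallisto 0.46.1 and the builds GRCm38.p6 and mm10. The deposited tables hold estimated counts per gene, TPM per gene, which the authors scaled to transcript length and depth, and log2 values (an rlog table) that, as the deposited table is titled, the authors corrected for a batch, which the labels do not name. The estimated counts were rounded to whole numbers and tested with edgeR 4.0.16 (R 4.3.3) by its quasi-likelihood test with TMM scaling, day as the 1 factor, the default filter on low counts and Benjamini-Hochberg adjustment over 14508 genes of 30154. Log2 fold changes carry the fit's prior count. Called means an adjusted p under 0.05. Marker sums were compared by exact two-sided permutation of 4 against 4 libraries. Gene positions and transcript lengths are from GENCODE M21 on GRCm38.

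Named genes were the 12 higher and 12 lower genes of smallest adjusted p among those changed at least 2-fold with no overlap, the 6 each way with the largest fold at 10 CPM or more, up to 4 called genes per list, and 17 genes given whatever their value. Other genes in the text were chosen after their values were seen, and the members and lists were chosen with earlier results of these data known. The alternatives were DESeq2 1.42.0, limma 3.58.1 on the TPM and log2 tables, other filters, scalings and designs, and each library left out. The GC and length offset (smoother span 0.3) was chosen after seeing the data. The edgeR fit was tested on simulated data. Replicate numbers were not used as pairs. Deviations from the day mean gave r of -0.0151 to 0.143 between same-numbered libraries of days 0 and 21. These deviations include the label difference of day 0, and the labels of the doubted pair are uncertain, so the check could not decide pairing. Values of a few genes are not reported here.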

Additional observations from a re-analysis of the deposited data

Results flagged for a closer look

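Among 163 genes named by rule, 22 of 326 groups of 4 libraries held a library whose gap to its nearest neighbour exceeded the 95% critical value of Dixon's test, and chance alone gives about 1 in 20. Replicate 2 labelled wild type of day 21 was the outlying library in 9 of them. It was the lowest of the 4 for Egfr at 215 CPM, Met at 54.6 CPM, Ier5 at 234 CPM, Skil at 350 CPM and Tgfbr1 at 128 CPM. It was the highest for Lum at 534 CPM, Acaa2 at 72.4 CPM, Ndufa8 at 64 CPM and Mki67 at 20.8 CPM. Replicate 1 labelled wild type of day 21, of the doubted pair, stood apart at 16.6 CPM for Six4, 45 CPM for Perp, 26.6 CPM for Fabp4 and 2.35 CPM for Sesn3. The replicates labelled knockout of day 21 stood apart at 38.6 CPM for Dll1 (replicate 1) and 62.9 CPM for Mcm4 (replicate 2).

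At day 0, knockout replicate 1 stood apart at 4.93 CPM for Six4 and 9.61 CPM for Higd1b. Knockout replicate 2 did so at 14.9 CPM for Hey2 and 66.9 CPM for Cryab, and wild-type replicate 2 at 15.6 CPM for Gsta4 and 0.237 CPM for Cxcl5.

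For 9 named genes the change from day 0 to day 21 differed between the genotypes by label, by an interaction term in edgeR at an adjusted p under 0.05. The differences, knockout minus wild type on the log2 scale, were 3.89 for Myh1, 2.08 for Pi16, 1.36 for Atp2a1, 1.19 for Nr1d2, 0.77 for Col8a1 and 0.50 for Rheb. They were -2.33 for Ifi205, -0.84 for Ech1 and -0.63 for Grb10. Since Sesn2 goes against the label of a day 21 library in each arm, these terms describe the labels and not the genotypes.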

How the results depend on the processing

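Of 14508 genes, 4208 were called. The count was 1470 without the doubted pair, of which 1432 were shared in the same direction, 1189 for changes of at least 2-fold, and 7174 with all 12 libraries and 6 means averaged over labels. Leaving out 1 library at a time gave 2909 to 4227 calls. DESeq2 called 5230 and the GC and length offset 3574, of which 2807 were shared. Of 151 named genes called, 35 were not called without the doubted pair and 19 not with that offset, and none of these named genes reversed under either. The median of the immediate early genes was -0.01 without the doubted pair, against 0.06. That of chromatin modifiers was -0.10 with the GC and length offset, against 0.15. That of skin markers, -0.41, was 0.34 with a replicate block, 0.34 with labelled genotype as a covariate, 0.48 with 6 means, and -0.81 to 0.02 with 1 library left out. The Notch median was -0.10 without replicate 2 labelled wild type of day 21, against 0.09. The cause was not tested in any of these.

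The replicate block called 4277 genes, and 2 of the 4 libraries of day 0 correlated best with their own number (r of -0.0151 to 0.143 between same-numbered libraries).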
